A study of Mus musculus with 16 samples.

Results

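The striatum of 4 R6/1 mice classified as “poor” performers was compared with that of 4 R6/1 mice classified as “good” performers by RNA-seq of single animals. Membership was taken from the sample titles, which placed 8 of the 16 mice of the series in these groups. All mice were males of 14 weeks on the C57Bl/6 background, without any treatment, and the other 8 were wild-type (wt) littermates, 4 “good” and 4 “poor”. R6/1 mice carry a transgene with exon 1 of the human huntingtin gene and an expanded CAG repeat, so that they model the toxic fragment and not the full-length protein, and transgene reads were not analysed here. The study ranked the animals of each genotype by Z-scores of the accelerating rotarod, feet clasping and body weight, and the mice with the best and the worst scores were taken. The groups are therefore the extremes of a continuous trait in animals that shared the transgene, the strain, the sex and the age. The study drew its animals from several cohorts and litters, and reports that some litter mates tended to have similar ranks. Cohort and litter of the 8 mice are not among the labels used here, and all tests treat the mice as independent.

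The striatum is composed mainly of medium spiny neurons (MSNs), GABAergic projection neurons that receive cortical glutamate and midbrain dopamine. MSNs of the direct pathway express the dopamine receptor D1, substance P and dynorphin, and MSNs of the indirect pathway express the dopamine receptor D2, enkephalin and an adenosine receptor. Loss of MSN transcripts, without much early loss of cells, is the transcriptional hallmark of Huntington disease (HD) and of its mouse models. In bulk tissue, fewer cells of a type and less RNA per cell cannot be told apart.

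The libraries held 16155356 to 20028431 gene counts in the R6/1 “good” mice and 19734534 to 24439777 in the R6/1 “poor” mice. The library names in the count data hold a running number from 1 to 16. The division into libraries 1 to 8 and 9 to 16 (the library sets) was made here. The 4 R6/1 “good” mice and “poor” mouse 2 fell in libraries 1 to 8, whereas “poor” mice 1, 3 and 4 fell in libraries 9 to 16. Totals in libraries 1 to 8 reached 20250680 and those in libraries 9 to 16 started at 21529188. What the number stands for is not given in the sources used here, and for 3 of the 4 “poor” mice it cannot be told apart from performance. Wild-type mice were spread over both library sets, so that the set could be added as a term in a fit of all 16 mice, and “poor” mouse 2 could be set against the 4 “good” mice within libraries 1 to 8. Within libraries 9 to 16 there was no R6/1 “good” mouse and hence no value. In a principal component analysis of the 8 R6/1 libraries, the first component (30.9% of the variance) ran from -35.1 to -9.05 in the “good” mice and was 50.5, 5.76, 34.3 and -8.12 in “poor” mice 1 to 4. The “poor” mice thus lay on 1 side of the “good” mice on this axis, but “poor” mouse 4 was next to them, and the second component (23.6%) was highest in that mouse.

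MSN markers were abundant in all 8 R6/1 mice, with summed levels of the 30 genes of an MSN list between 4705 and 10799 CPM (counts scaled to a common library size). Markers of neighbouring tissue also varied among the dissections. Summed markers of hypothalamic neurons (8 of 13 listed genes passed the filter on low counts, and Oxt, Pmch, Hcrt, Ghrh and Kiss1 did not) were at 5.05 to 7.19 CPM in the “good” mice and at 6.18 to 43.2 CPM in the “poor” mice. Those of lateral septal neurons (10 of 10 genes) were at 56.1 to 95.2 CPM and 70.1 to 237 CPM, and those of cortical neurons (15 genes) at 607 to 1320 CPM and 498 to 2058 CPM, respectively. Ranges of all 3 lists overlapped between the groups, and the part of these neighbours in the results that follow was not tested.

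Of the 19363 genes that reached 10 counts in 4 or more libraries, 0 (0.0%) differed between R6/1 “poor” and “good” mice at an adjusted p under 0.05 in edgeR's quasi-likelihood test, the lowest adjusted p being 0.248. At an unadjusted p under 0.05, edgeR had 1611 genes higher (8.32%) and 1389 genes lower (7.17%) in the “poor” mice. DESeq2, the tool of the study, called 227 genes higher (1.17%) and 129 genes lower (0.666%) from the same counts. Its own filters left 4885 of the 19363 genes without an adjusted p, whereas edgeR adjusted over all of them. The call depended on single animals: edgeR called 61 genes without “poor” mouse 2 and 99 without “poor” mouse 4, and DESeq2 called 1195 and 1173 genes without these mice but 34 and 1 without “poor” mice 1 and 3. With the library set as a term in all 16 mice, edgeR and DESeq2 both called 0 genes, and edgeR had 373 genes higher (1.93%) and 606 genes lower (3.13%) at an unadjusted p under 0.05. No gene named below therefore passed edgeR's threshold, and each is given by its value in every mouse, its log2 fold change (“poor” over “good”, ± SE of the edgeR fit) and, where stated, its DESeq2 adjusted p without the library set. Values in CPM are listed in the order of mice 1 to 4.

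A count that needs no model is that of genes whose 4 “poor” and 4 “good” mice did not overlap in CPM. There were 474 such genes with higher values in the “poor” mice (2.45%) and 775 with lower values (4.0%), where the smallest p that an exact two-sided permutation test of 4 against 4 mice can give is 0.0286. The median log2 fold change of all genes tested was 0.00, and 9638 genes (49.8%) had a positive and 9725 (50.2%) a negative value. Counts of list members below are to be read against the shares of all genes. At an unadjusted p under 0.05 in edgeR these were 8.32% higher and 7.17% lower, and 1.93% and 3.13% with the library set as a term. By DESeq2 they were 1.17% and 0.666%, and without overlap 2.45% and 4.0%.

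MSN transcripts were lower in the “poor” than in the “good” mutant mice. Drd1 (ENSMUSG00000021478, chr13:54051183-54055705, minus strand), the dopamine receptor D1, was at 119, 138, 99.3 and 162 CPM in the “good” mice and at 66.3, 93.7, 74.02 and 95.5 CPM in the “poor” mice, with a log2 fold change of -0.64 ± 0.16. Drd2 (ENSMUSG00000032259, chr9:49340627-49408177, plus strand), the dopamine receptor D2, stood at 86.5, 128, 93.9 and 157 CPM against 52.9, 70.2, 57.2 and 79.5 CPM, a log2 fold change of -0.83 ± 0.20. For both receptors every “poor” mouse was below every “good” mouse, with mouse 4 the highest of either group. Ppp1r1b (ENSMUSG00000061718, chr11:98348404-98357796, plus strand), which encodes DARPP-32, the phosphoprotein that integrates dopamine signals in MSNs and overlaps an opposite-strand gene over 15.7% of its length, was at 368, 518, 381 and 637 CPM and at 222, 320.2, 251 and 345 CPM, respectively (-0.73 ± 0.20). Its groups did not overlap either, “poor” mouse 4 being the nearest to the “good” mice. DESeq2 adjusted p-values for the 3 genes were 0.0161, 0.00722 and 0.0175.

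The peptide precursors of both pathways were lower as well. Penk (ENSMUSG00000045573, chr4:4133531-4138819, minus strand), the enkephalin precursor, whose gene overlaps an opposite-strand gene over 14.3% of its length, had 327, 370.5, 306 and 422 CPM in the “good” mice and 214, 290.4, 236 and 251 CPM in the “poor” mice, and its log2 fold change was -0.51 ± 0.12 (DESeq2 adjusted p = 0.00966). Tac1, the precursor of substance P, had 188, 229, 156 and 229 CPM against 118, 145, 132 and 154 CPM (-0.53 ± 0.13). Neither gene overlapped between the groups, but for Tac1 the highest “poor” mouse and the lowest “good” mouse were nearly level. Pdyn, the dynorphin precursor, had 97.6, 89.7, 69.9 and 94.8 CPM against 51.3, 78.7, 55.1 and 49.8 CPM (-0.57 ± 0.16). Here “poor” mouse 2 was above the lowest “good” mouse, so that the groups overlapped. With the library set as a term, the log2 fold changes of Penk, Tac1 and Pdyn were -0.42 ± 0.18, -0.62 ± 0.18 and -0.52 ± 0.20, and “poor” mouse 2 alone differed from the 4 “good” mice of its own library set by -0.28, -0.46 and -0.15.

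Signalling enzymes and channels of MSNs gave the same picture. Pde10a, the cyclic nucleotide phosphodiesterase most typical of MSNs, was at 331, 419, 325 and 580.5 CPM in the “good” mice and at 209.8, 278, 239 and 313 CPM in the “poor” mice (-0.65 ± 0.20). Pde1b, the calmodulin-dependent phosphodiesterase, was at 551, 754, 583 and 913 CPM against 317, 501, 357 and 442 CPM (-0.78 ± 0.19). All “poor” values of both enzymes were below all “good” values. Gabrd, the delta subunit of extrasynaptic GABA-A receptors, had 54.4, 62.8, 62.3 and 81.1 CPM and 29.9, 42.9, 29.6 and 49.01 CPM (-0.77 ± 0.19, DESeq2 adjusted p = 0.00874). “Poor” mice 1 and 3 were the lowest and no “poor” mouse reached the “good” range. Scn4b, the beta-4 subunit of sodium channels, had 146, 225, 173 and 314 CPM and 100.3, 119.5, 106 and 149.7 CPM (-0.84 ± 0.24), and Rarb, a retinoic acid receptor whose exons overlap an opposite-strand gene over 38.4% of their length, had 26.5, 27.8, 22.6 and 34.02 CPM and 13.1, 23.3, 15.6 and 17.3 CPM (-0.67 ± 0.18). In these 2 genes 1 “poor” mouse passed the lowest “good” mouse, mouse 4 for Scn4b and mouse 2 for Rarb. The log2 fold change with the library set as a term was -0.65 ± 0.21 for Gabrd, -0.77 ± 0.32 for Scn4b and -0.39 ± 0.18 for Rarb.

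**Figure D1:**
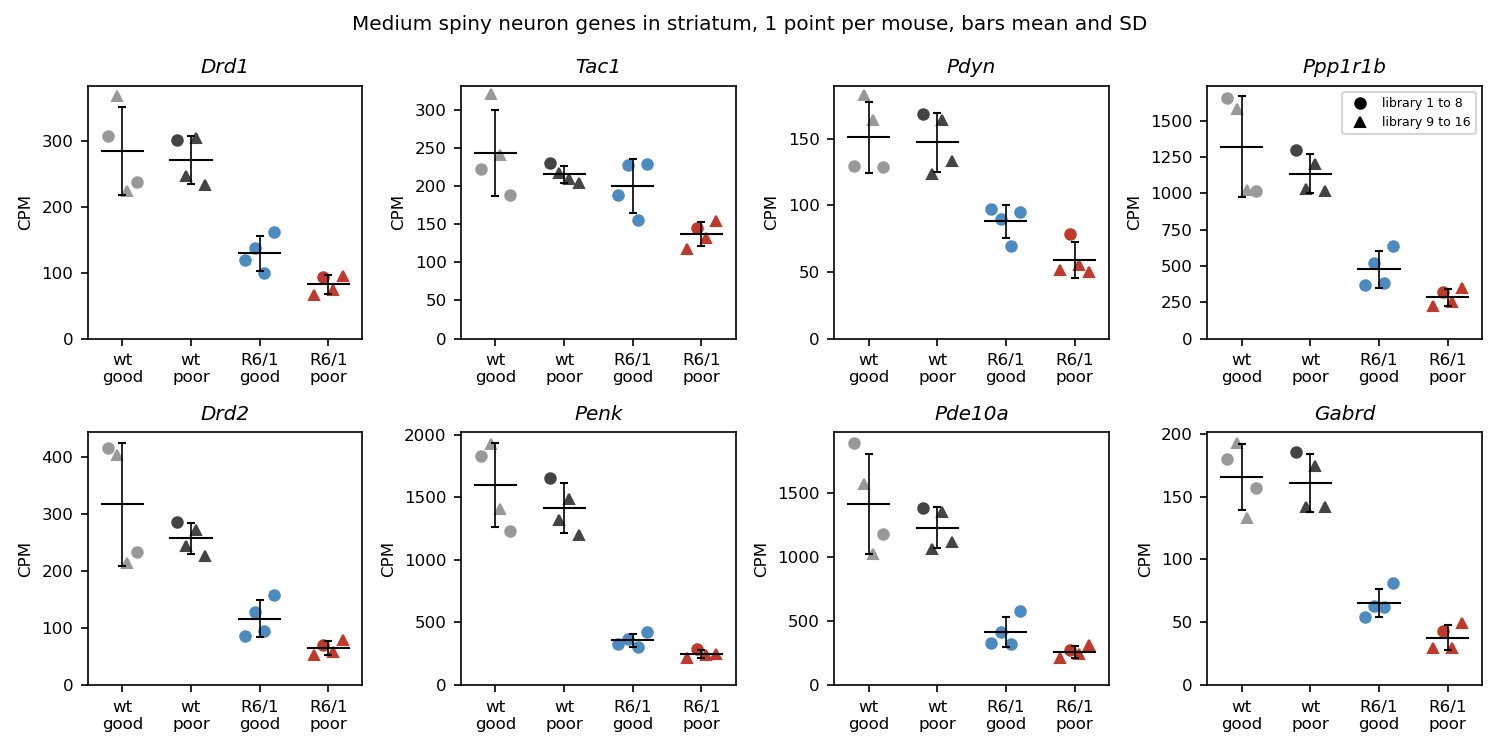
Levels of 8 MSN genes in CPM (y axis, from 0) in each of the 16 mice by group, with circles for libraries 1 to 8, triangles for libraries 9 to 16, and black lines for the group mean and SD (n = 4). All R6/1 mice lie below all wild-type mice except for Tac1, and in 7 of the 8 genes all 4 “poor” mice lie below the 4 “good” mice; the exception is Pdyn.

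In the MSN list all 30 measured genes were on the negative side, their median being -0.49 against 0.00 over all genes tested. At an unadjusted p under 0.05, 24 were lower and 0 higher, 12 were lower by DESeq2, and 6 did not overlap between the groups. Over the list, the average log2 level minus that of the wild-type mice was -1.31, -0.98, -1.38 and -0.75 in the “good” mice and -1.93, -1.52, -1.74 and -1.34 in the “poor” mice. Every “poor” mouse but mouse 4, which was just above “good” mouse 3, was below the “good” mice. The same average ran from -0.29 to 0.43 in the wild-type “good” mice and from -0.22 to 0.10 in the wild-type “poor” mice. The list median was -0.45 with the library set as a term and -0.46 within libraries 1 to 8, and wild-type libraries 9 to 16 differed from wild-type libraries 1 to 8 by -0.14. Between wild-type “poor” and “good” mice the list median was -0.17, with 28 of the 30 genes negative and 2 positive.

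Direct and indirect pathway lists, which hold markers other than shared MSN genes, were less uniform. Of 12 direct pathway genes 8 were negative (median -0.27) and 5 were lower at an unadjusted p under 0.05, and of 11 indirect pathway genes 8 were negative (median -0.17) and 4 were lower. Adora2a, the adenosine receptor of indirect pathway neurons, was at 71.1, 101, 81.1 and 125 CPM in the “good” mice and at 34.2, 74.6, 38.2 and 65.05 CPM in the “poor” mice (-0.82 ± 0.29). “Poor” mice 1 and 3 were far below the others, whereas mouse 2 was within the “good” range. A few members had positive values. Htr7, a serotonin receptor, was at 4.51, 4.12, 8.70 and 4.00 CPM and at 16.9, 9.94, 16.7 and 5.48 CPM (1.22 ± 0.40), and Sfxn1, a mitochondrial serine transporter, at 73.1, 68.8, 64.02 and 66.1 CPM and at 87.5, 68.5, 89.2 and 82.3 CPM (0.28 ± 0.09). Of these, Sfxn1 had a difference of 0.07 ± 0.12 with the library set as a term. Among the 4 transcripts that the study used as a signature of HD, Penk is given above. Plk5 had 5.78, 8.09, 8.35 and 5.89 CPM and 5.13, 8.59, 6.04 and 5.44 CPM (-0.14 ± 0.20), Itpka had 51.8, 62.9, 51.4 and 64.5 CPM and 24.2, 44.2, 32.8 and 69.1 CPM (-0.42 ± 0.29), and Rin1 had 47.9, 58.2, 39.1 and 66.6 CPM and 22.7, 36.4, 32.3 and 51.8 CPM (-0.55 ± 0.25). Groups overlapped for these 3 genes, and Plk5 had a value of 0.14 ± 0.22 with the library set as a term.

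Genes whose groups did not overlap were ranked if their average log2 CPM was 1 or more, and the 12 with the smallest p in each direction were examined. Sulf2, an endosulfatase that edits heparan sulphate at the cell surface, had the smallest p of these, with 63.7, 61.02, 66.5 and 65.5 CPM in the “good” mice and 87.8, 80.1, 90.96 and 88.7 CPM in the “poor” mice (0.45 ± 0.06, DESeq2 adjusted p = 2e-06). The gap between the groups exceeded the whole range within either of them. Camk1g, a calcium/calmodulin-dependent kinase, was at 13.2, 10.8, 11.8 and 11.9 CPM against 21.9, 17.96, 21.2 and 16.5 CPM (0.72 ± 0.11, DESeq2 adjusted p = 0.000305). Pou3f2, a POU-domain transcription factor, was at 17.9, 16.5, 18.6 and 16.5 CPM against 24.8, 21.8, 24.7 and 28.3 CPM (0.54 ± 0.09), and Farp1, a guanine nucleotide exchange factor of dendrites and synapses, at 35.5, 31.9, 35.6 and 32.6 CPM against 51.3, 39.97, 52.9 and 47.4 CPM (0.52 ± 0.09). “Poor” mouse 2 was the lowest of its group for Sulf2, Pou3f2 and Farp1. These 4 genes had log2 fold changes, with the library set as a term, of 0.37 ± 0.13, 0.48 ± 0.15, 0.28 ± 0.12 and 0.42 ± 0.13.

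Frmpd3, a FERM and PDZ domain protein, had the largest log2 fold change of the 12, with 28.2, 21.2, 22.1 and 19.1 CPM in the “good” mice and 41.6, 33.5, 43.5 and 32.6 CPM in the “poor” mice (0.75 ± 0.14). Traf3, an adaptor of tumour necrosis factor receptors that restrains the alternative NF-κB pathway, was at 52.04, 54.5, 52.8 and 50.2 CPM and 68.8, 59.9, 71.3 and 73.4 CPM (0.40 ± 0.07). Hmga1, an architectural chromatin protein, was at 39.1, 35.7, 41.2 and 33.1 CPM and 58.8, 48.8, 56.9 and 47.1 CPM (0.52 ± 0.10). All 4 “poor” mice exceeded the “good” mice in each of the 3 genes, mouse 2 being the nearest for Traf3 and mouse 4 for Frmpd3 and Hmga1. The remaining 5 were Fam199x, Ly6h, Cotl1 (an actin-binding protein), Znrf2 (a ubiquitin ligase) and Pabpc1l2a-ps (a pseudogene, whose reads cannot be told from those of near-identical copies), with log2 fold changes from 0.40 to 0.64.

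In the opposite direction, Pcdhb6, a clustered protocadherin of the beta family, was at 9.56, 10.4, 10.5 and 10.3 CPM in the “good” mice and at 7.09, 6.71, 6.28 and 6.42 CPM in the “poor” mice (-0.60 ± 0.10, DESeq2 adjusted p = 0.0019). Stk26, a kinase of the germinal centre family, was at 44.9, 53.6, 47.5 and 56.5 CPM against 32.3, 37.1, 32.9 and 38.4 CPM (-0.51 ± 0.09), and Foxo1, a forkhead factor controlled by insulin signalling, at 64.7, 65.7, 61.1 and 71.1 CPM against 51.3, 49.6, 49.1 and 53.4 CPM (-0.35 ± 0.06). Gaps between the groups exceeded the whole range within the “poor” mice in these 3 genes. Nfya, a subunit of the CCAAT-binding factor NF-Y, was at 55.2, 53.7, 53.6 and 57.8 CPM and 42.5, 45.95, 43.01 and 46.6 CPM (-0.29 ± 0.06). Rgs20, a regulator of G protein signalling, was at 36.4, 38.9, 34.5 and 44.2 CPM and 23.8, 29.5, 24.97 and 30.5 CPM (-0.49 ± 0.10), and Syndig1, a transmembrane protein that associates with AMPA receptors, at 58.1, 55.5, 49.9 and 56.5 CPM and 42.4, 44.7, 41.7 and 44.8 CPM (-0.33 ± 0.06). Groups did not overlap in these 3 genes, and “poor” mice 2 and 4 were the nearest to the “good” mice. Pcp4l1, a small protein with a calmodulin-binding motif, was at 303, 315, 290.3 and 355 CPM and 185, 261, 182 and 198 CPM (-0.60 ± 0.12), with “poor” mouse 2 the nearest to the “good” mice. The other 5 were Serpina9, Ypel2, the pseudogene Rpl31-ps12, and the uncharacterised Gm48573 and BB031773. Gm48573 lies wholly within Syndig1l on the other strand (100% of its length) and BB031773 overlaps an opposite-strand gene over 39.8%, and their log2 fold changes were -1.47 ± 0.29 and -1.04 ± 0.21.

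**Figure D2:**
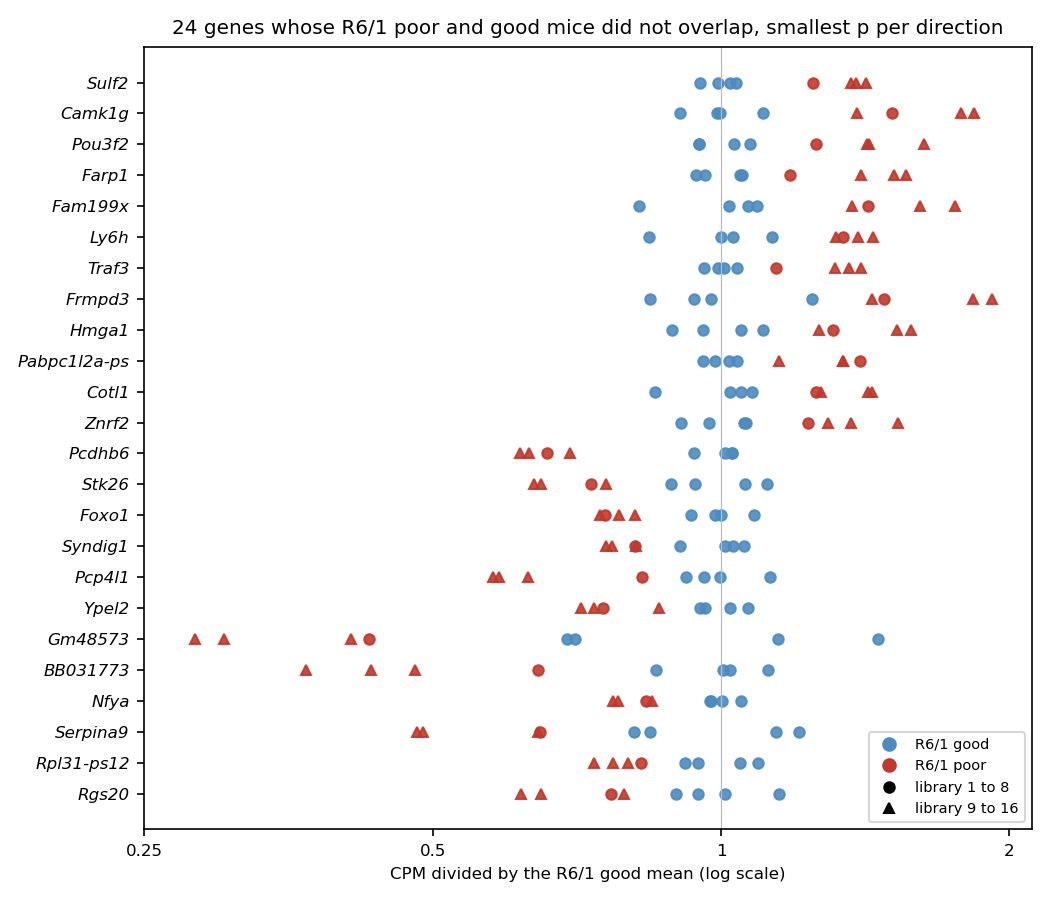
CPM of 24 genes divided by the mean of the R6/1 “good” mice (x axis, log scale), 1 point per R6/1 mouse, blue for “good” and red for “poor”, circles for libraries 1 to 8 and triangles for libraries 9 to 16. The genes were chosen because the groups do not overlap, so the separation is the criterion itself, and the red circle, “poor” mouse 2, is the red point nearest to the blue ones in several genes, among them Sulf2, Pou3f2, Farp1, Traf3 and Pcp4l1.

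These 24 genes were chosen from the comparison, and the fit with the library set as a term holds the same 8 R6/1 mice, so that it gives no independent evidence for them. In wild-type mice, which the choice did not use, 345 of the 474 and 589 of the 775 differed between libraries 9 to 16 and 1 to 8 in the same direction as between R6/1 “poor” and “good” mice, and 83 and 83 did so at an unadjusted p under 0.05. Over all genes, 7.29% were higher and 5.05% lower in wild-type libraries 9 to 16 at that level (1412 and 978 genes), and 8 genes passed edgeR's adjusted threshold.

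Genes induced by glucocorticoids were higher in “poor” mice 1, 3 and 4. Plin4, a lipid droplet coat protein, was at 2.55, 5.05, 2.63 and 2.30 CPM in the “good” mice and at 23.9, 3.43, 36.6 and 42.2 CPM in the “poor” mice (3.10 ± 0.71, DESeq2 adjusted p = 0.00609). Cdkn1a, the cell cycle inhibitor p21, was at 5.34, 4.76, 4.85 and 5.20 CPM and 11.9, 5.65, 14.3 and 16.9 CPM (1.29 ± 0.29). Sult1a1, a phenol sulphotransferase, was at 3.77, 3.48, 2.86 and 3.55 CPM and 10.2, 3.09, 13.5 and 12.8 CPM (1.55 ± 0.39). In each gene 3 “poor” mice stood well above the “good” mice and mouse 2 was at or near the “good” level. Gjb6, the astrocytic gap junction protein connexin 30, was at 19.6, 26.1, 27.7 and 26.2 CPM and 71.8, 24.9, 66.7 and 55.6 CPM (1.16 ± 0.31), and Ddit4, an inhibitor of mTORC1, at 18.7, 21.1, 20.8 and 23.8 CPM and 28.3, 23.3, 29.4 and 27.9 CPM (0.38 ± 0.10). Gjb6 divided the “poor” mice in the same way, whereas the values of Ddit4 lay close together and mouse 2 was within the “good” range. Within libraries 1 to 8, “poor” mouse 2 differed from the “good” mice by 0.14 for Plin4, 0.18 for Cdkn1a, -0.14 for Sult1a1 and 0.01 for Gjb6. Adding the library set gave log2 fold changes of 1.72 ± 0.70, 0.90 ± 0.34, 0.93 ± 0.32 and 0.70 ± 0.28.

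All 22 measured glucocorticoid-responsive genes had a positive log2 fold change, with a median of 0.37. At an unadjusted p under 0.05, 12 were higher and 0 lower, 6 were higher by DESeq2, and 1 (Cdkn1a) did not overlap between the groups. Averaged over its genes, the log2 level minus that of the wild-type mice was -0.46, -0.38, -0.47 and -0.33 in the “good” mice and 0.26, -0.54, 0.40 and 0.52 in the “poor” mice. “Poor” mouse 2 was the lowest of all 8, and the other 3 were above the “good” mice. The list median was 0.16 with the library set as a term and -0.09 within libraries 1 to 8, and wild-type libraries 9 to 16 exceeded libraries 1 to 8 by 0.18. Serum corticosterone was not part of the data, and the part of the library set in these values was not tested beyond these fits.

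The list of p53 targets shares Cdkn1a and Ddit4 with the glucocorticoid list and gave a smaller shift, with 14 of 20 genes positive, a median of 0.13, 6 genes higher and 2 lower at an unadjusted p under 0.05, and 2 higher by DESeq2. The p53 median with the library set as a term was 0.03, with 11 genes positive and 2 higher and 1 lower at that level, and wild-type libraries 9 to 16 exceeded libraries 1 to 8 by 0.13. Phlda3, an inhibitor of Akt, was at 12.8, 13.2, 16.7 and 14.4 CPM in the “good” mice and at 23.04, 21.4, 21.1 and 14.8 CPM in the “poor” mice (0.51 ± 0.14). Fas, a death receptor, was at 1.81, 1.27, 0.935 and 1.30 CPM and 2.35, 1.74, 2.92 and 3.64 CPM (1.01 ± 0.28), and Ccng1, cyclin G1, at 55.6, 51.8, 56.2 and 51.5 CPM and 73.1, 51.4, 70.5 and 78.96 CPM (0.37 ± 0.12). In each gene 1 “poor” mouse did not exceed the “good” mice, mouse 4 for Phlda3 and mouse 2 for Fas and Ccng1. The proapoptotic Bax was at 21.6, 23.2, 20.1 and 20.1 CPM and 18.2, 20.4, 16.7 and 23.4 CPM (-0.10 ± 0.11), and the antiapoptotic Bcl2 had a log2 fold change of 0.01 ± 0.12.

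Chaperones of the endoplasmic reticulum (ER) showed the same division of the “poor” mice. The ER stress element, a bipartite sequence bound by NF-Y and ATF6 that includes a CCAAT box, is known from the promoters of several such genes. The 300 bases around the RefSeq start (250 before and 50 after, GRCm38.p6) are printed for 4 chaperones whose promoters hold the element, because they are the members described next; capitals mark each match to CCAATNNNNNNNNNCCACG on either strand. They lie at chr2:34771840-34772139 (plus strand), chr10:86705395-86705694 (minus strand), chr11:50325624-50325923 (minus strand) and chr12:17266339-17266638 (plus strand), respectively.
Hspa5: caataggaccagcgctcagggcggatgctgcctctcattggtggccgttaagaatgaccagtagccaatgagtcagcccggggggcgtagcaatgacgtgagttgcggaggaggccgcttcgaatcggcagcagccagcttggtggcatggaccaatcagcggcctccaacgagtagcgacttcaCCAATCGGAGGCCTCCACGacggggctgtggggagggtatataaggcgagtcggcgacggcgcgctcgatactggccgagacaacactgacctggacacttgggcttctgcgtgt
Hsp90b1: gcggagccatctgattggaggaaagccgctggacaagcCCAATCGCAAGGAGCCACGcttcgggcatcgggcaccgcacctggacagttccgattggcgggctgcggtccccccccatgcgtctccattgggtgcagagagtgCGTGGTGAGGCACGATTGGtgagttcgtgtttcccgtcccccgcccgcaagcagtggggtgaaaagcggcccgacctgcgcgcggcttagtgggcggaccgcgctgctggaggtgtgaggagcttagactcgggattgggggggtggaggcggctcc
Canx: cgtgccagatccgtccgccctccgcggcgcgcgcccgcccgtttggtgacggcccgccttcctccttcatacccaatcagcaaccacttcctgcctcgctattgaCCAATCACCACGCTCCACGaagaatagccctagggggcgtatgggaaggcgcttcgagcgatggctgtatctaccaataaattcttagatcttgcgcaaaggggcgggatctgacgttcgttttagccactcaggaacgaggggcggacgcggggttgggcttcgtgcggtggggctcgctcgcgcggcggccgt
Pdia6: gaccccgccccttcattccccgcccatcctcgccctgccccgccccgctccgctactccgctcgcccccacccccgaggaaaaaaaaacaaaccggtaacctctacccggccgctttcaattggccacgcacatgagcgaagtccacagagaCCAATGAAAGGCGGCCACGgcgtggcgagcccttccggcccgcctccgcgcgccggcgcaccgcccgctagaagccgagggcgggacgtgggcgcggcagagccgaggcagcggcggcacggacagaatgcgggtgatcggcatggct

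The element began 65 bases before the start in Hspa5, 212 and 107 bases in Hsp90b1 (the second on the opposite strand), 145 bases in Canx and 98 bases in Pdia6. It was found in 7 of the 16 list members with a promoter entry (43.8%), namely Calr, Canx, Creld2, Dnajc3, Hsp90b1, Hspa5 and Pdia6. Of all 27025 genes with a promoter entry 37 had it (0.137%), and of the 13080 tested genes with an entry 22 had it (0.168%). CCAAT alone, on either strand, was in 15 of the 16 (93.8%), in 41.1% of all genes with an entry and in 42.2% of those tested. Every full element includes such a box.

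Hspa5, the chaperone BiP, was at 268, 268, 291 and 295 CPM in the “good” mice and at 439.8, 248, 435 and 385 CPM in the “poor” mice (0.44 ± 0.16). Hsp90b1, the chaperone GRP94, whose gene overlaps an opposite-strand gene over 15.7% of its length, was at 232, 236, 249.5 and 232 CPM and 346, 242, 314 and 312 CPM (0.37 ± 0.10). Canx, the lectin chaperone calnexin, was at 383, 367, 387 and 363 CPM and 512, 394, 498 and 441 CPM (0.31 ± 0.09). In each, “poor” mice 1, 3 and 4 were above every “good” mouse, and mouse 2 was below the “good” mice for Hspa5, within their range for Hsp90b1 and just above it for Canx. The disulphide isomerases Pdia6 and Pdia3 had log2 fold changes of 0.37 ± 0.12 and 0.30 ± 0.10, with mouse 2 the lowest of the 8 in both. Once the library set was a term, the differences were -0.12 ± 0.35 for Hspa5, 0.07 ± 0.14 for Hsp90b1, 0.07 ± 0.08 for Canx, 0.02 ± 0.21 for Pdia6 and -0.01 ± 0.14 for Pdia3.

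Of the 18 ER chaperone and unfolded protein response genes 16 were positive, with a median of 0.22. At an unadjusted p under 0.05, 7 were higher and 0 lower, 2 were higher by DESeq2, and 1 (Canx) did not overlap. List averages relative to the wild type were -0.23, -0.25, -0.22 and -0.20 in the “good” mice and 0.10, -0.36, 0.04 and -0.04 in the “poor” mice, again with mouse 2 the lowest of the 8. The median was -0.09 with the library set as a term and -0.12 within libraries 1 to 8, while wild-type libraries 9 to 16 exceeded libraries 1 to 8 by 0.35. The 22 tested genes of any kind with the element had 17 positive values and a median of 0.22; for the 15 of them outside the list, 11 were positive and the median was 0.07.

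**Figure D3:**
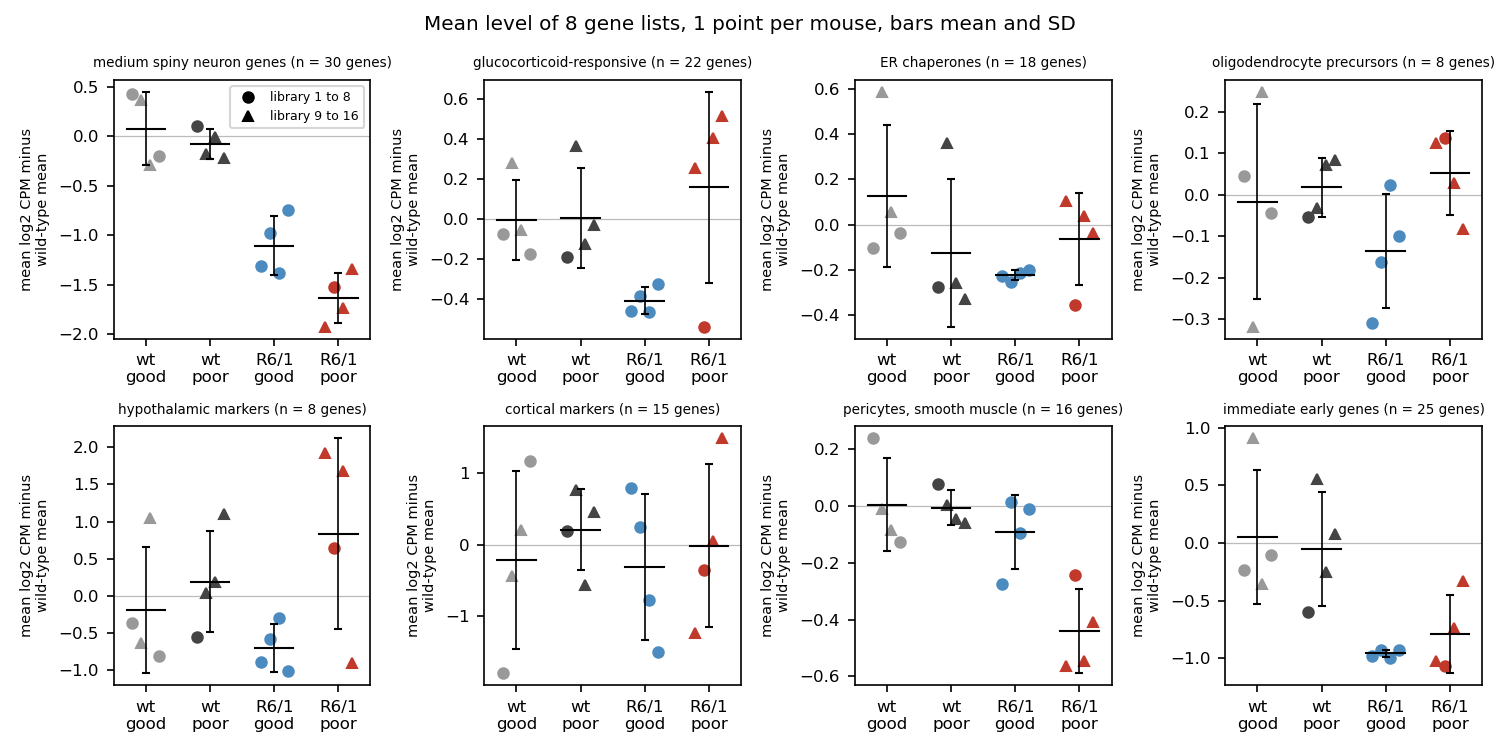
Mean log2 CPM over the genes of 8 lists minus the mean of the 8 wild-type mice (y axis), 1 point per mouse by group, circles for libraries 1 to 8 and triangles for libraries 9 to 16, with lines for mean and SD (n = 4). In the MSN panel the “poor” R6/1 mice reach from -1.93 to -1.34; in the glucocorticoid and ER panels the single red circle, “poor” mouse 2, lies at -0.54 and -0.36, below the 3 red triangles.

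Cell-surface molecules of axon guidance and adhesion had values of both signs, and the members described first were higher in the “poor” mice. Adgrg1, an adhesion G protein-coupled receptor, was at 66.1, 68.04, 78.2 and 67.1 CPM in the “good” mice and at 115, 104, 109 and 76.6 CPM in the “poor” mice (0.55 ± 0.12, DESeq2 adjusted p = 0.00874). “Poor” mouse 4 was just below “good” mouse 3, the only overlap, and the value with the library set as a term was 0.57 ± 0.13. Dscam, an immunoglobulin-family receptor of neurite self-avoidance, was at 30.5, 26.8, 29.6 and 20.5 CPM and 55.99, 35.5, 50.5 and 40.3 CPM (0.78 ± 0.17). Ephb2, a receptor of ephrin-B, was at 8.28, 7.36, 9.99 and 9.59 CPM and 15.3, 13.3, 12.3 and 12.3 CPM (0.61 ± 0.13), and Plxna1, a semaphorin receptor, at 49.4, 44.4, 45.3 and 32.3 CPM and 67.7, 60.5, 64.3 and 58.1 CPM (0.56 ± 0.12). In Dscam, Ephb2 and Plxna1 all “poor” mice were above all “good” mice. The secreted semaphorins Sema3c and Sema3d had log2 fold changes of 0.77 ± 0.19 and 0.65 ± 0.15, and the secreted guidance cue Slit1 had 35.4, 25.5, 20.4 and 13.4 CPM and 50.8, 31.2, 52.8 and 54.05 CPM (1.01 ± 0.30). Slit1 ranged widely among the “good” mice, and “poor” mouse 2 fell inside that range. When the library set was added, the value was 0.57 ± 0.25 for Dscam, 0.47 ± 0.22 for Ephb2, 0.53 ± 0.25 for Plxna1 and 0.89 ± 0.45 for Slit1.

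Of 56 axon guidance genes 34 were positive (median 0.05), 7 were higher by DESeq2, and 5 were higher without overlap. At an unadjusted p under 0.05, 15 were higher and 4 lower, where 8.32% and 7.17% of all genes tested were. Of 25 cadherins and non-clustered protocadherins 19 were positive (median 0.16), 10 were higher and 0 lower, and 3 were higher by DESeq2. The cadherin median was 0.03 with the library set as a term, with 0 genes higher at that level, and wild-type libraries 9 to 16 exceeded libraries 1 to 8 by 0.17. For axon guidance genes the median with this term was 0.10, with 5 higher and 2 lower at an unadjusted p under 0.05. Pcdh8, an activity-regulated protocadherin, was at 10.7, 8.73, 7.94 and 7.74 CPM in the “good” mice and at 21.7, 20.6, 23.2 and 10.3 CPM in the “poor” mice (1.12 ± 0.24), with mouse 4 below the highest “good” mouse and the other 3 well above. Cdh2, N-cadherin, was at 114, 95.7, 108 and 95.5 CPM and 139, 119, 134 and 118 CPM (0.32 ± 0.08), without overlap. Of the membrane anchors Mdga1 and Mdga2, which bind neuroligins, Mdga1 was at 11.4, 11.7, 11.04 and 6.69 CPM and 23.98, 18.2, 21.9 and 9.70 CPM (0.87 ± 0.28), and Mdga2 had a log2 fold change of 0.18 ± 0.08. The 22 clustered protocadherins of the beta family had 16 negative values (median -0.20), 5 lower and 0 higher at an unadjusted p under 0.05, and 1 lower by DESeq2 (Pcdhb6). Pcdhb10, Pcdhb16, Pcdhb17 and Pcdhb21 had log2 fold changes from -0.36 to -0.26. These genes are related copies in 1 cluster, so that reads from similar stretches can be split among them by the mapping. How far this occurred was not tested, and the single-gene values, that of Pcdhb6 included, are uncertain.

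Ion channels and receptors gave values of both signs. Cacna1g, a T-type calcium channel, was at 32.9, 31.7, 36.6 and 17.5 CPM in the “good” mice and at 63.3, 44.4, 56.8 and 48.6 CPM in the “poor” mice (0.86 ± 0.22), and Trpc4, a cation channel of septal and other limbic neurons, at 10.8, 10.6, 7.77 and 8.69 CPM and 17.7, 12.5, 19.8 and 11.9 CPM (0.73 ± 0.18). Cacna2d3, an auxiliary subunit of calcium channels, was at 139.9, 159.7, 137 and 201 CPM and 97.01, 128, 109.9 and 117 CPM (-0.48 ± 0.13). None of the 3 overlapped, the first pair being higher and the third lower in the “poor” mice. Among potassium channels, Kcna4 was at 58.6, 58.4, 49.2 and 65.04 CPM and 41.9, 46.5, 37.9 and 45.8 CPM (-0.41 ± 0.09), and Kcns2, a modulatory subunit, at 42.3, 43.2, 43.1 and 47.8 CPM and 34.9, 35.3, 32.3 and 38.5 CPM (-0.31 ± 0.07). Kcnj16, an inward rectifier, was at 16.8, 14.5, 16.3 and 10.2 CPM and 28.7, 21.3, 26.4 and 18.5 CPM (0.73 ± 0.18), and Kcnk3, a leak channel, at 10.9, 10.9, 10.98 and 6.99 CPM and 17.1, 13.4, 14.5 and 14.4 CPM (0.60 ± 0.15). These 4 did not overlap either, with the first pair lower and the second pair higher. The 55 potassium channel genes as a whole were balanced (28 positive and 27 negative, median 0.00, 8 higher and 10 lower at an unadjusted p under 0.05), and of 34 calcium channel, release channel and pump genes 13 were positive and 21 negative (median -0.09).

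Of 16 GABA receptor genes 12 were positive (median 0.23), and 8 were higher and 2 lower at an unadjusted p under 0.05. Their median was 0.08 with the library set as a term, with 0 higher and 2 lower, and wild-type libraries 9 to 16 exceeded libraries 1 to 8 by 0.23. Gabrq and Gabre, subunits enriched in hypothalamic and brainstem neurons, were at 2.01, 3.88, 3.85 and 1.75 CPM in the “good” mice against 31.9, 9.94, 25.5 and 1.39 CPM in the “poor” mice (2.60 ± 0.83) and at 0.441, 0.932, 0.876 and 0.350 CPM against 7.26, 1.69, 5.15 and 0.368 CPM (2.50 ± 0.83). “Poor” mice 1 and 3 were highest for both genes, and mouse 4 was below the “good” range for Gabrq and within it for Gabre. The same mice were highest for the hypothalamic markers, whose list mean relative to the wild type was 1.92, 0.64, 1.69 and -0.90 in “poor” mice 1 to 4 and -1.01 to -0.30 in the “good” mice. Gabrd, described above, was the member with the clearest lower values. Of 22 glutamate receptor genes 3 were higher and 0 lower, with a median of 0.01, and among them the kainate receptor subunit Grik4 had 17.6, 16.5, 15.8 and 15.2 CPM and 19.6, 22.8, 19.9 and 18.5 CPM (0.33 ± 0.09), without overlap.

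Among transcriptional regulators, the 3 NF-Y subunits had log2 fold changes of -0.29 ± 0.06 (Nfya), -0.02 ± 0.10 (Nfyb) and -0.24 ± 0.08 (Nfyc). Their median of -0.24 was -0.13 with the library set as a term and -0.07 within libraries 1 to 8. Nfyc was at 72.8, 70.8, 70.6 and 83.2 CPM in the “good” mice and at 56.6, 70.3, 59.02 and 64.2 CPM in the “poor” mice, and “poor” mouse 2 nearly reached the lowest “good” mouse. Nfkb2, the p100/p52 subunit of NF-κB, whose gene overlaps Psd on the other strand over 18.1% of its length, was at 18.1, 19.5, 22.1 and 20.98 CPM and 8.72, 16.7, 10.01 and 12.5 CPM (-0.74 ± 0.18, DESeq2 adjusted p = 0.0161). “Poor” mice 1 and 3 were lowest and the groups did not overlap, but wild-type libraries 9 to 16 differed from libraries 1 to 8 by -0.56 ± 0.10, and the difference with the library set as a term was -0.33 ± 0.13. Rel and Tnfaip3, a subunit and a feedback inhibitor of the pathway, had log2 fold changes of -0.39 ± 0.12 and -0.38 ± 0.13, and the inhibitor Nfkbia had one of 0.45 ± 0.15. Over 16 NF-κB genes 12 were negative (median -0.07, and -0.03 with the library set as a term), with 4 lower and 1 higher at an unadjusted p under 0.05 and 4 lower without overlap. Mbd2, a reader of methylated DNA, was at 45.9, 49.99, 42.8 and 48.6 CPM and 36.5, 38.8, 37.3 and 40.3 CPM (-0.28 ± 0.07), without overlap, and in wild-type mice it differed between “poor” and “good” by -0.23 ± 0.10.

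The clock genes Nr1d1 and Dbp, both driven by BMAL1, were at 59.1, 65.05, 73.9 and 71.9 CPM against 41.7, 58.2, 53.8 and 50.4 CPM (-0.39 ± 0.11) and at 29.8, 36.01, 30.6 and 35.8 CPM against 19.8, 28.7, 24.8 and 26.4 CPM (-0.39 ± 0.11). All “poor” mice were below all “good” mice in both. Dbp overlaps Sphk2 on the other strand over 18% of its length. Of 18 clock genes 10 were negative (median -0.06), with 3 lower and 0 higher at an unadjusted p under 0.05. After adding the library set 17 of the 18 were negative (median -0.19), while wild-type libraries 9 to 16 exceeded libraries 1 to 8 by 0.15. Immediate early genes, which report recent neuronal activity, had 19 of 25 positive values and a median of 0.17, with 4 higher and 1 lower. Fos was at 3.58, 2.70, 4.96 and 2.50 CPM and 5.86, 3.04, 6.41 and 6.63 CPM (0.70 ± 0.29), but wild-type libraries 9 to 16 exceeded libraries 1 to 8 by 1.82 ± 0.64, and the value with the library set as a term was -0.58 ± 0.54. For the list as a whole, these medians were 0.52 and -0.26. Targets of the serum response factor were negative in 16 of 20 genes, with a median of -0.18 (-0.165 with the library set as a term). At an unadjusted p under 0.05, 4 of them were lower and 1 higher. Their list shares Acta2, Tagln, Cnn1 and Myl9 with the smooth muscle markers described below, and Fos and Egr1 with the immediate early genes.

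Among glial cells, markers of oligodendrocyte precursors had higher values in the “poor” mice. For this list, 7 of 8 markers were positive (median 0.20, 0.19 with the library set as a term and 0.28 within libraries 1 to 8), 4 were higher at an unadjusted p under 0.05 and 3 did not overlap. Pdgfra, their defining growth factor receptor, was at 67.04, 62.9, 63.3 and 63.2 CPM in the “good” mice and at 77.05, 76.6, 80.8 and 67.7 CPM in the “poor” mice (0.25 ± 0.07, DESeq2 adjusted p = 0.0435). Neu4, a sialidase, was at 11.7, 13.4, 14.5 and 11.9 CPM and 18.7, 15.9, 17.5 and 14.8 CPM (0.40 ± 0.11), and Olig2, the lineage transcription factor, at 18.3, 20.5, 25.5 and 19.98 CPM and 29.6, 26.6, 26.6 and 25.6 CPM (0.38 ± 0.11). Every “poor” mouse exceeded every “good” mouse in these 3 genes, but by narrow margins. Mature oligodendrocytes had 13 of 16 negative markers (median -0.13) and microglia 12 of 16 (median -0.15, and -0.09 with the library set as a term). Of 18 astrocyte markers 15 were positive (median 0.13), of which Fgfr3, a fibroblast growth factor receptor whose gene overlaps an opposite-strand gene over 13.9% of its length, was at 70.7, 79.96, 100.1 and 73.1 CPM and 125, 94.4, 122 and 119 CPM (0.52 ± 0.13), while Gfap, the marker of reactive astrocytes, had 61.1, 85.5, 147 and 69.8 CPM and 116, 97.1, 110.2 and 97.8 CPM (0.23 ± 0.26). “Good” mouse 3 had the highest Gfap of the 8.

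Pericyte and smooth muscle markers were negative in 15 of 16 genes, with a median of -0.31, 7 genes lower and 0 higher at an unadjusted p under 0.05, 2 lower by DESeq2 and 3 lower without overlap. Acta2, smooth muscle actin, was at 16.7, 26.8, 18.5 and 23.6 CPM in the “good” mice and at 10.2, 16.9, 9.53 and 12.3 CPM in the “poor” mice (-0.80 ± 0.20). Vtn, vitronectin, was at 79.7, 92.7, 85.6 and 108 CPM and 55.9, 81.00, 49.9 and 59.5 CPM (-0.56 ± 0.15), and Pdgfrb, the pericyte growth factor receptor, at 31.4, 32.6, 32.01 and 35.3 CPM and 25.3, 30.2, 21.3 and 26.9 CPM (-0.33 ± 0.10). “Poor” mouse 2 was the highest of its group in the 3 genes, and for Acta2 and Vtn it fell within the “good” range. The value with the library set as a term was -0.52 ± 0.19 for Acta2, -0.36 ± 0.12 for Vtn and -0.08 ± 0.11 for Pdgfrb. Averaged over the list, log2 levels minus the wild-type mean were -0.27, 0.02, -0.10 and -0.01 in the “good” mice and -0.56, -0.24, -0.55 and -0.41 in the “poor” mice. The list median with the library set as a term was -0.19. Of 14 endothelial markers 12 were negative (median -0.17, and -0.09 with the library set as a term) and 5 did not overlap, among them Esam (-0.31 ± 0.09), Flt1 (-0.21 ± 0.07) and Pecam1 (-0.24 ± 0.08). Slc2a1, the glucose transporter GLUT1, also in this list, had 89.2, 92.8, 90.1 and 95.5 CPM and 148, 85.5, 142 and 166 CPM (0.57 ± 0.17), with mouse 2 below the “good” mice and the other 3 above them.

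Interneuron markers had mostly positive values. Of 15 markers of GABAergic interneurons 12 were positive (median 0.19), with 4 higher and 0 lower at an unadjusted p under 0.05, and all 9 markers of cholinergic interneurons were positive (median 0.35), of which 0 passed that level. Lhx6, a transcription factor of interneurons from the medial ganglionic eminence, was at 15.2, 17.7, 16.5 and 16.1 CPM in the “good” mice and at 23.2, 28.6, 26.8 and 15.6 CPM in the “poor” mice (0.54 ± 0.16), and Erbb4, the neuregulin receptor of these cells, at 58.6, 44.5, 57.2 and 51.1 CPM and 82.3, 75.8, 80.8 and 52.7 CPM (0.48 ± 0.15). “Poor” mice 1, 2 and 3 were above the “good” mice and mouse 4 was within their range for both genes. Calb2, calretinin, had 7.74, 7.50, 14.4 and 4.05 CPM and 116, 30.6, 65.1 and 4.83 CPM (2.71 ± 0.89). It is also a marker of thalamic neurons, whose list had a median of 0.70. All 10 lateral septal markers (median 0.85) and all 8 hypothalamic markers (median 2.42) were positive, with 5 and 5 higher at an unadjusted p under 0.05, and 11 of 11 ependymal markers (median 0.77) were positive. Medians with the library set as a term were 0.07 for thalamic (4 positive and 4 negative), 0.45 for septal, 1.22 for hypothalamic and 0.31 for ependymal markers, and wild-type libraries 9 to 16 exceeded libraries 1 to 8 by 0.76, 0.62, 1.31 and 0.33, respectively.

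The “poor” mice did not leave the range of the “good” mice together. Besides the 474 and 775 genes in which all 4 did so, “poor” mice 1, 3 and 4 without mouse 2 were above the “good” range in 1089 genes (5.62%) and below it in 1222 genes (6.31%). Mice 1, 2 and 3 without mouse 4 were above it in 888 genes (4.59%) and below it in 724 genes (3.74%). The sets without mouse 1 and without mouse 3 were smaller, with 134 and 80 genes above the range and 162 and 154 below it, and mouse 4 by itself was outside the range in 1869 genes above and 1898 below. Mouse 2 is the only “poor” mouse in libraries 1 to 8, and mouse 4 had the highest cortical marker level of the 8 (a list mean of 1.49 against -1.24, -0.36 and 0.05 in “poor” mice 1, 2 and 3).

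Gene lists were distributed unevenly over these patterns. Of the 22 glucocorticoid-responsive genes 14 were higher in mice 1, 3 and 4 only, 0 in mice 1, 2 and 3 only and 1 in all 4. Of the 18 ER genes 10 were higher in mice 1, 3 and 4 only and 1 in all 4. In contrast, 16 of the 30 MSN genes were lower in mice 1, 2 and 3 only, 6 in all 4 and 3 in mice 1, 3 and 4 only, and 4 of the 8 hypothalamic markers were higher in mice 1, 2 and 3 only. “Poor” mouse 2, the only one in libraries 1 to 8, was thus part of the commonest MSN pattern but not of the commonest glucocorticoid and ER patterns. This is a description of 1 mouse. The parts of the library set and of neighbouring tissue in these patterns were not tested.

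**Figure D4:**
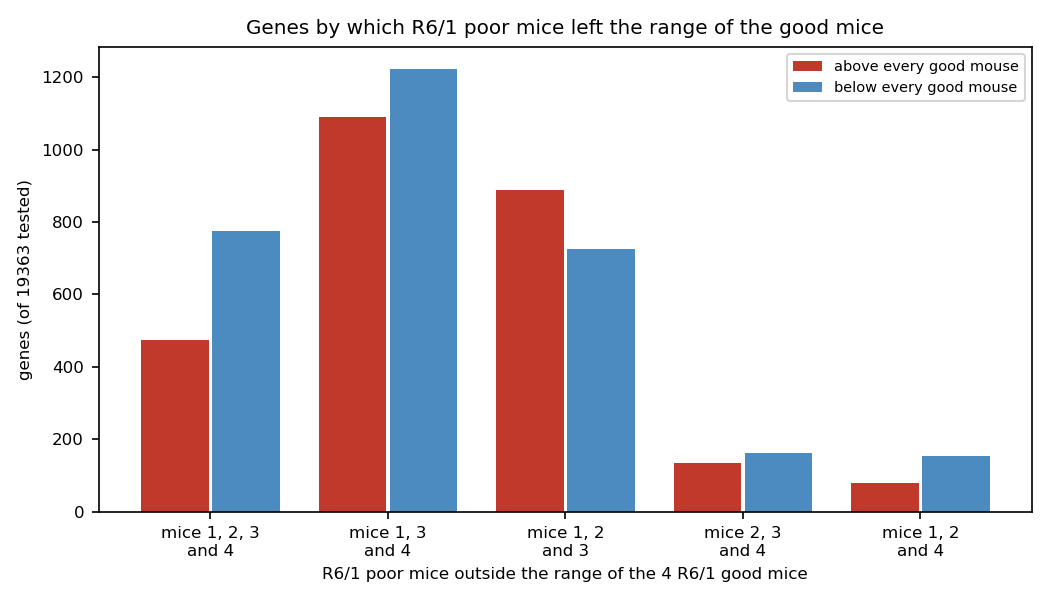
Number of genes (y axis, of 19363 tested) for which the R6/1 “poor” mice named on the x axis, and no other, lay above (red) or below (blue) the range of the 4 “good” mice. The bars for all 4 mice are at 474 and 775 genes, and those for mice 1, 3 and 4 are the tallest of the sets of 3 or 4 mice plotted, at 1089 and 1222 genes.

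The same contrast in wild-type mice asks whether performance goes with expression without the transgene. In the wild type both edgeR and DESeq2 called 0 genes between the performance groups, and edgeR had 199 genes higher (1.03%) and 273 lower (1.41%) at an unadjusted p under 0.05. Genes without overlap numbered 149 higher (0.77%) and 196 lower (1.01%). The interaction of genotype and performance, which tests the difference between both contrasts, had 0 genes at an adjusted p under 0.05 in edgeR and 1 in DESeq2, and at an unadjusted p under 0.05 edgeR had 468 positive (2.42%) and 650 negative genes (3.36%). That fit held no term for the library set, with which performance went more closely in the R6/1 mice than in the wild type. The gene counts of both contrasts are therefore not directly comparable. Once the library set was a term of the interaction fit, edgeR again had 0 genes at an adjusted p under 0.05. At an unadjusted p under 0.05 it then had 329 positive and 493 negative genes. Thus the R6/1 difference was not shown to differ from the wild-type difference for any gene by edgeR.

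Among the genes with the smallest interaction p, Ano2, Pcdhb6 and Camk1g had opposite signs in the genotypes, which a ranking by the difference between both contrasts favours. All interaction values given here are from the fit without the library set, and its part in them was not tested gene by gene. Ano2, a calcium-activated chloride channel, was at 16.1, 23.4, 19.7 and 30.1 CPM in the R6/1 “good” and 11.8, 16.8, 13.7 and 13.2 CPM in the R6/1 “poor” mice (-0.68 ± 0.18), and its wild-type difference was 0.47 ± 0.11, so that the interaction was -1.16 ± 0.22. Notch4, an endothelial Notch receptor, was at 6.13, 5.49, 6.37 and 7.49 CPM and 9.57, 8.01, 10.3 and 11.1 CPM in the R6/1 mice, and its interaction was 0.87 ± 0.19. Hebp2, a haem-binding protein, had an interaction of 1.19 ± 0.27, and Pglyrp1, a secreted peptidoglycan recognition protein, one of 1.58 ± 0.35. The R6/1 groups did not overlap for Notch4, whereas “poor” mouse 2 was inside the “good” range for Ano2 and Pglyrp1. For Pcdhb6 and Camk1g, described above, the interactions were -0.70 ± 0.16 and 0.91 ± 0.21, with wild-type differences of 0.09 ± 0.14 and -0.21 ± 0.16. The other genes of this rank were Spred3, Susd1, Cep192 and BB031773. For the MSN transcripts the interaction was -0.58 ± 0.25 for Drd1, -0.54 ± 0.33 for Drd2, -0.35 ± 0.21 for Penk and -0.74 ± 0.24 for Gabrd, and over the MSN list its median was -0.37, with 2 genes negative at an unadjusted p under 0.05.

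With the library set as a term in all 16 mice, a partly different group of genes had the smallest p. Pcdhb6 again led the lower genes (-0.64 ± 0.13), and Tac1 was among the first 8 (-0.62 ± 0.18). Ankrd35, an ankyrin repeat protein, was at 8.38, 5.54, 6.25 and 5.74 CPM in the “good” mice and at 11.03, 10.4, 10.01 and 9.62 CPM in the “poor” mice, with an adjusted difference of 0.73 ± 0.16. Mmp14, a membrane-bound matrix metalloproteinase, was at 9.36, 9.27, 10.6 and 9.24 CPM and 11.97, 14.3, 12.2 and 9.12 CPM, with a difference of 0.32 ± 0.14 without and 0.60 ± 0.12 with the library set. Smarcc2, a subunit of BAF chromatin remodellers, was at 231, 224, 225 and 211 CPM and 254, 255, 273 and 263 CPM, with 0.24 ± 0.07. Ankrd35 and Smarcc2 did not overlap between the groups, and for Mmp14 “poor” mouse 4 was below all “good” mice. Cep131, a centriolar satellite protein, and Clip2, a microtubule-binding protein, had adjusted differences of 0.55 ± 0.13 and 0.30 ± 0.08, and Tsnax, the partner of translin, one of -0.31 ± 0.09. The rest of these genes were Adgrg1, Frmpd1 and Rab4b on the higher side and Vmn2r57, C230014O12Rik, Pus7, Erlin1 and Gm12992 on the lower side, of which Rab4b, Vmn2r57 and Gm12992 overlap opposite-strand genes over 65%, 41.5% and 35% of their length.

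Several gene groups with other tasks in the cell stayed near the median of all genes. Cytosolic ribosomal proteins had 22 positive and 25 negative values (median -0.01), nuclear-encoded oxidative phosphorylation genes 23 and 22 (median 0.00), and synaptic genes a median of 0.06. Bcl2 family genes had a median of 0.07. Cholesterol synthesis genes were further from it, with 16 of 24 positive and a median of 0.12. With the library set as a term 12 of them were positive and 12 negative (median -0.0013). Of the mitochondrial genome, 13 mRNAs have a count of 0 in every library and were left out.

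**Figure D5:**
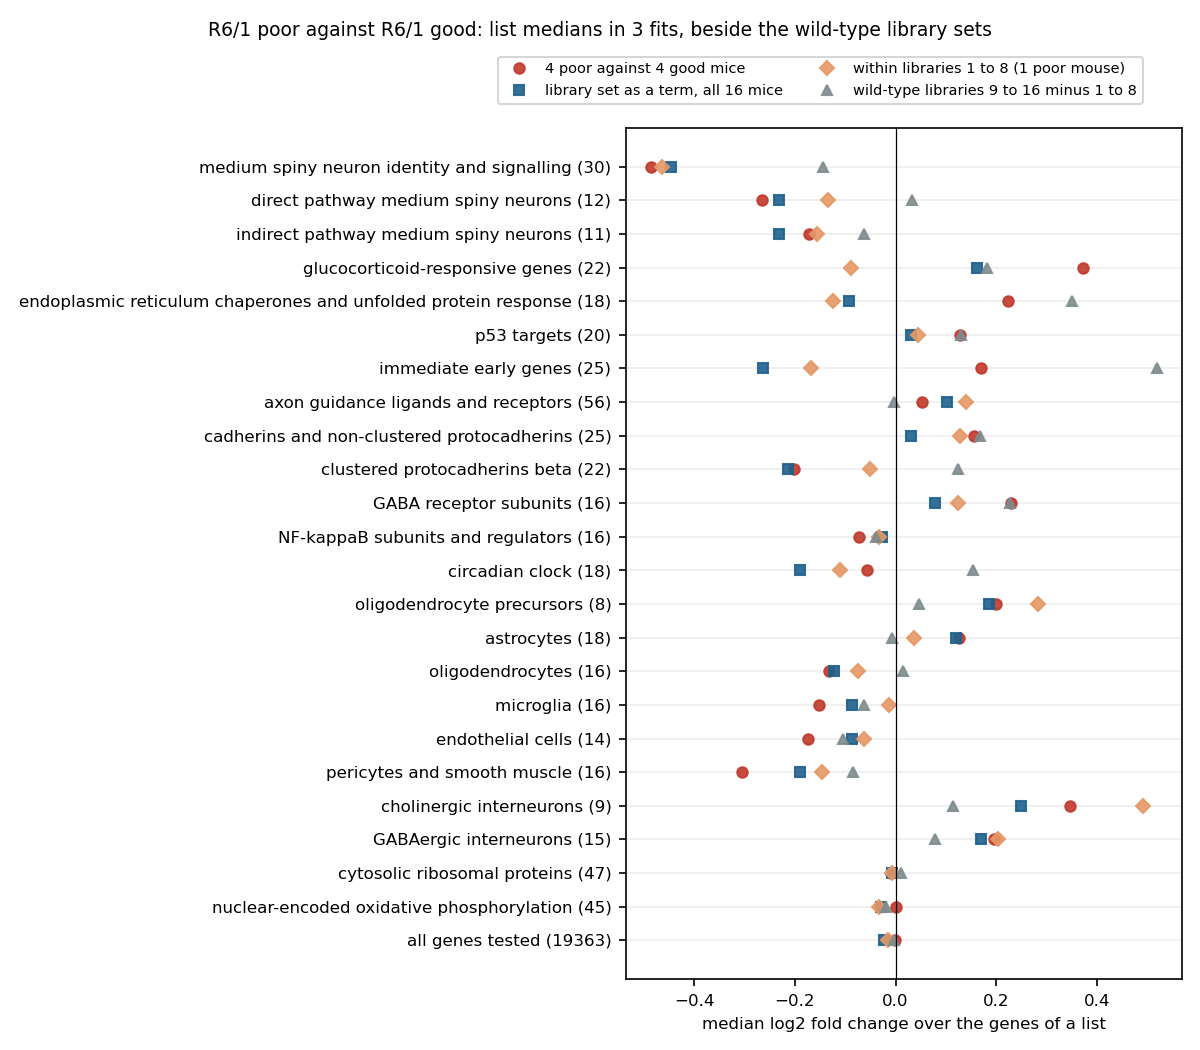
Median log2 fold change (x axis) of 24 gene sets, the number of genes in parentheses, for R6/1 “poor” over “good” (red circles), the same with the library set as a term (blue squares), “poor” mouse 2 alone within libraries 1 to 8 (orange diamonds), and wild-type libraries 9 to 16 over 1 to 8 (grey triangles). For the MSN list the first 3 symbols lie together between -0.49 and -0.45, whereas for the ER chaperones they lie at 0.22, -0.09 and -0.12 with the grey triangle at 0.35.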

How the data were processed

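RNA of single striata was sequenced by the authors as 75-bp paired-end reads from TruSeq stranded mRNA libraries and mapped to GRCm38. The submitters' processing notes name CASAVA, Bowtie and TopHat 1.0.1. Which read counter, strand setting and annotation release were used is not given in the sources used here. The deposited table holds raw counts per Ensembl gene, 1 library per mouse and 16 in all. All 55450 identifiers matched the GENCODE M21 annotation (GRCm38), which gave symbols, positions and overlaps between genes. An overlap is the share of the exon length of a gene that lies in exons of other genes, pooled over both strands. Without a stated strand setting, reads of a gene and of its antisense partner cannot be told apart.

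Groups and replicate numbers followed the sample titles. The 19363 genes that reached 10 counts in 4 or more of the 16 libraries were tested with edgeR 4.0.16 (TMM factors, robust quasi-likelihood test, limma 3.58.1, R 4.3.3) and with DESeq2 1.42.0 as an alternative. p-values were adjusted by the Benjamini-Hochberg method with a threshold of 0.05, in edgeR over all genes tested. DESeq2 adjusted them over the genes that its own filters kept, so that 4885 of the 19363 had no adjusted p in R6/1 “poor” against “good”. CPM were computed with TMM factors, and list means from log2 CPM with a prior count of 2. Both tools were tested on simulated data. The library set (running numbers 1 to 8 or 9 to 16) was added as a term in a fit of all 16 mice.

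Genes were named by rule: genes that the study names, the 12 genes per direction with the smallest p without overlap between groups, up to 5 members of every described list, by smallest p, 5 per direction for the interaction, and 8 per direction with the library set as a term, the rules by rank requiring an average log2 CPM of at least 1. A single result that these rules name is not reported here. Gene lists are from general knowledge, and list members, rules and the comparison were chosen with earlier results of these data known. Promoters are RefSeq sequences (GRCm38.p6), searched for 27025 genes, and a gene counted if any of its promoters held the match. Alternatives were other normalization factors, filters and dispersions, DESeq2, the replicate number as a block, each mouse left out, 1 fit of all 4 groups and the library set. No pair of libraries agreed within sampling noise. Python 3.11.15, numpy 2.4.6, pandas 2.3.3, scipy 1.17.1 and matplotlib 3.10.9 were used for tables and figures.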

Additional observations from a re-analysis of the deposited data

Results flagged for a closer look

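For each of the 152 named genes, the highest or lowest mouse of the R6/1 “good” and “poor” groups was compared with the other 3. In 17 of 304 groups tested 1 mouse stood apart, measured as its gap to the nearest mouse over the whole range of the group (above the 95% limit of Dixon for 4 values), where chance gives about 1 in 20 groups. Of the 17, 11 were in “good” and 6 in “poor” mice.

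In the “good” group, mouse 3 was high for Htr7 (8.70 CPM, others 4.00 to 4.51), Adgrg1 (78.2 CPM, others 66.1 to 68.0) and Mmp14 (10.6 CPM, others 9.24 to 9.36) and low for Higd1b (3.10 CPM, others 3.43 to 3.497). Mouse 2 was high for Plin4 (5.05 CPM, others 2.30 to 2.63) and low for Pdia3 (188.8 CPM, others 194.8 to 194.9) and Pus7 (21.3 CPM, others 21.8 to 21.9). Mouse 4 was low for Mdga1 (6.69 CPM, others 11.0 to 11.7) and Kcnk3 (6.99 CPM, others 10.9 to 11.0) and high for Kcns2 (47.8 CPM, others 42.3 to 43.2), and mouse 1 was high for Pdgfra (67.0 CPM, others 62.9 to 63.3).

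In the “poor” group, mouse 2 was low for Pdia3 (183.5 CPM, others 248 to 259) and Slit1 (31.2 CPM, others 50.8 to 54.0) and high for Esam (19.8 CPM, others 17.0 to 17.4) and Anpep (2.46 CPM, others 1.99 to 2.05). Mouse 1 was high for Bcl2 (28.2 CPM, others 22.3 to 23.1) and mouse 4 for Tsnax (255 CPM, others 212 to 218).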

How the results depend on the processing

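Against 0 genes called by edgeR, R6/1 “poor” against “good” gave 356 with DESeq2, 28 without a filter on low counts and 96 with the replicate number as a block, a replicate block that the labels do not support as a pairing. Mice with the same number did not deviate together in that replicate block (correlations of their deviations -0.16, -0.14, 0.03 and 0.02), and none of the R6/1 mice correlated best with the mouse of its own number. Leaving out 1 mouse gave 0 to 99 genes (61 without “poor” mouse 2, 99 without “poor” mouse 4). The 3000 genes at an unadjusted p under 0.05 became 407 with the library set as a term in the same mice, 979 in all 16 mice (930 in DESeq2) and 603 within libraries 1 to 8, and 1647 to 3966 without 1 mouse (1770 without “poor” mouse 1 and 1647 without mouse 3). The 356 DESeq2 calls became 0 with the library set, in the same or in all mice, and 1 to 1195 without 1 mouse: 532, 21, 469 and 37 without “good” mice 1 to 4 and 34, 1195, 1 and 1173 without “poor” mice 1 to 4. The interaction gave 1 gene with DESeq2 and 0 to 2 without 1 mouse (2 without R6/1 “poor” mouse 2), and the fit with the library set likewise 0 to 2 (2 without the same mouse). The 8 genes between the wild-type library sets became 249 with DESeq2, 248 without a filter, 4 with at least 50 counts, 4 without robust dispersions, 0 with the replicate block and 1 to 2 without any 1 mouse. The cause of these changes was not tested.

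Of the 152 named genes 136 kept their sign under all 19 alternatives. With the library set as a term in the same mice, which leaves “poor” mouse 2 alone against the “good” mice, the sign turned for Plk5 (0.30), Sult1a1 (-0.14), Ccng1 (-0.055), Slc2a1 (-0.093), Ly6c1 (-0.078), Pdia6 (-0.095), Pdia3 (-0.065), Hspa5 (-0.17), Mdga2 (-0.0063), Nfkbia (-0.055), Fos (-0.16), Glul (-0.10), Bcl2 (-0.063) and Pglyrp1 (-0.0088), with the same values to 2 decimals within libraries 1 to 8 (Mdga2 -0.0062, Pglyrp1 -0.0089). In all 16 mice it turned for Plk5 (0.14, DESeq2 0.15), Pdia3 (-0.0083), Hspa5 (-0.12, DESeq2 -0.12), Mdga2 (-0.013, DESeq2 -0.0035), Fos (-0.58, DESeq2 -0.56), Nr4a1 (-0.36, DESeq2 -0.33) and Bcl2 (-0.18, DESeq2 -0.18). In 1 fit of all 4 groups Bcl2 was -0.0072, and without 1 mouse Nfyb ran from -0.11 to 0.033 and Bcl2 from -0.077 to 0.097. List medians turned for immediate early genes (-0.17 in the same mice and within libraries 1 to 8, -0.26 in all mice, DESeq2 -0.26), ER chaperones (-0.12, -0.093 and -0.086), glucocorticoid-responsive genes (-0.089) and cortical neurons (-0.48 and -0.47, and -0.55 to 1.21 without 1 mouse), for cholesterol genes in all mice (-0.0013), and for calcium channels without “poor” mouse 1 (-0.12 to 0.0069 over all mice left out).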

Other observations

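Of 21 neuropeptide precursors tested 16 were positive (median 0.89), with 9 higher and 3 lower at an unadjusted p under 0.05, the 3 lower ones being Penk, Tac1 and Pdyn. With the library set as a term their median was 0.64, with 2 higher and 3 lower, and within libraries 1 to 8 it was 0.23. Their list mean relative to the wild type ran from -1.61 to -0.41 in the “good” mice and from -0.37 to 0.31 in the “poor” mice, while the summed level, which is dominated by MSN peptides, ran from 688 to 887 CPM and from 595 to 735 CPM. The list shares Avp, Crh, Gal, Pomc and Trh with the hypothalamic markers and Nts with the septal markers. Of the 21 precursors 6 were higher in “poor” mice 1, 2 and 3 only, as were 4 of the 8 hypothalamic markers. The part of neighbouring tissue in these values was not tested. Markers of neuroblasts and dividing cells (12 genes, median 0.15) summed to 376 to 433 CPM in the “good” mice and to 448 to 501 CPM in the “poor” mice, without overlap, and 5 of them were higher at an unadjusted p under 0.05. With the library set as a term 6 were positive and 6 negative (median 0.02), with 0 higher and 1 lower, and wild-type libraries 9 to 16 exceeded libraries 1 to 8 by 0.13. Markers of blood (5 genes, median -0.42, and -0.10 with the library set as a term) summed to 83.2 to 209 CPM and to 85 to 127 CPM, respectively.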
